A study of Drosophila melanogaster with 3 samples.

Results

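The regions described here are peaks of Rel (Relish), an NF-κB protein that acts at the end of the Drosophila IMD pathway, that lie away from promoters and hold a κB site. Of the 9419 peaks in the authors' optimal list, 4658 had a summit more than 500 bp from every annotated transcription start site (TSS) and are called distal. In 493 of these 4658 (10.6%) a 10-base κB match lay wholly within 100 bp of the summit on either strand. The match reads 3 G, 1 purine, any 2 bases, 2 pyrimidines and 2 C. The other 4165 distal peaks, which lack such a match, served for comparison, and the 4761 promoter peaks were set aside. Neither signal nor replicate support was used to divide the distal peaks by κB match. The optimal list itself was derived by the authors from the replicate and pooled lists, and its lowest signal is 191.

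The peaks come from chromatin immunoprecipitation with an antibody against GFP, followed by sequencing (ChIP-seq), in whole Drosophila melanogaster larvae at the wandering stage before pupariation. The animals were males and females pooled, of unknown age, from 1 stable transgenic line that expresses Rel fused to GFP. The labels name the fusion Rel-eGFP in 1 field and describe GFP at the N terminus of Rel in another. All 3 samples belong to 1 group of biological replicates, and no infection, drug or other treatment is named in the labels. No second condition was present, so comparisons are made between sets of peaks, and peaks are not biological replicates. Whole larvae mix all tissues, so fewer cells with bound Rel and less Rel bound per cell cannot be told apart. Depth per sample is unknown, since the lists hold no read counts. The lists show only where tagged Rel was enriched over a control library.

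In the IMD pathway, peptidoglycan of certain bacteria is sensed by recognition proteins, and the signal passes through the adaptor Imd and a kinase complex to Rel. Rel is made as a precursor whose C-terminal ankyrin part holds it in the cytoplasm. After cleavage the N-terminal part, which carries the Rel homology domain, enters the nucleus and binds DNA as a dimer at κB sites, each subunit contacting one end of the site. Its best known targets are antimicrobial peptide genes in the fat body and gut. A κB match whose sequence reads as a match on both strands at the same place is called symmetric here, and any other a one-strand match.

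The 12 strongest of the distal κB peaks whose sequence can be shown here are given first, because they show how the 10 bases vary among the most strongly enriched regions. Sequences are from the RefSeq Release 6 genome (dm6 coordinates, + strand), written 5′ to 3′ with 20 bases on each side of the match nearest the summit. Capitals mark this nearest κB match. At Exn, further matches that overlap it begin in the lower-case bases before it. At Pli, a further match that overlaps it ends in the lower-case base just after it.
CG4911, chr3L:9072147-9072196: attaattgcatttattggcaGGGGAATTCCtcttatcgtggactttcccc
CG5921, chrX:6062329-6062378: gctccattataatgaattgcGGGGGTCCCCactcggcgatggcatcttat
MEP-1, chr3L:2633051-2633100: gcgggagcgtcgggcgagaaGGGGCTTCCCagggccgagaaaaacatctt
Tmem43, chr3L:7916356-7916405: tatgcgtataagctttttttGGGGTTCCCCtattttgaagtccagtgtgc
Pli, chr3R:23885358-23885407: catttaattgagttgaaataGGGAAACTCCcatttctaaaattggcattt
Exn, chr3L:16985603-16985652: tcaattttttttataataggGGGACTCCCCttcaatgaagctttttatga
Hydr2, chr2L:3165243-3165292: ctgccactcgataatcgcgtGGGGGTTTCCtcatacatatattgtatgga
eff, chr3R:14739160-14739209: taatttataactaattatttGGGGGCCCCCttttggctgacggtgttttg
LPCAT, chrX:9577224-9577273: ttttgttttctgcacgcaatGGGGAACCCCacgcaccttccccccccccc
cact, chr2L:16319921-16319970: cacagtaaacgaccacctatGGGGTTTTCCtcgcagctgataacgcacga
Mekk1, chr3R:18742804-18742853: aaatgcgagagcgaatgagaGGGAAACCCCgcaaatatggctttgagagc
Trx2, chr2L:9615082-9615131: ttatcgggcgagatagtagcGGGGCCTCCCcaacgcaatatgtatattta

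For the strongest of all, in the first intron of CG4911, the whole window searched is shown, with the match again in capitals. The summit is at its middle base, 27.5 bp from the centre of the match.
CG4911 window, chr3L:9072099-9072299: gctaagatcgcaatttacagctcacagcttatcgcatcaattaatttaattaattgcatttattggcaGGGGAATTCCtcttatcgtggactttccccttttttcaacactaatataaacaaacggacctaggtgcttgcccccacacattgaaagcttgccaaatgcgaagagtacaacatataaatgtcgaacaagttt

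The match lay close to the summit. The distance from match centre to summit had a median of 15.5 bp, and 348 of the 493 peaks (70.6%, exact 95% interval 66.4 to 74.6) had the match within 25 bp, although the rule allowed any place out to 100 bp. Each replicate's own summits gave shares of 64.7% in replicate 1 (311 of 481 matched peaks), 69.4% in replicate 2 (340 of 490) and 64.7% in replicate 3 (315 of 487). Around all 4658 distal summits, matches numbered 2684 per Mb within 10 bp of the summit, 1624 per Mb at 10 to 25 bp, 511 per Mb at 25 to 50 bp and 174 per Mb at 50 to 100 bp. From 100 to 1000 bp the density ranged from 74.1 to 105 per Mb, lowest at 400 to 600 bp and 91.2 per Mb at 800 to 1000 bp. Matches that overlap each other count separately in these densities. As a background, 1.70% of 574660 distal genome tiles of 201 bp held a κB match, and so did 1.14% of 4897 distal windows 1000 bp away from distal summits.

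**Figure D1:**
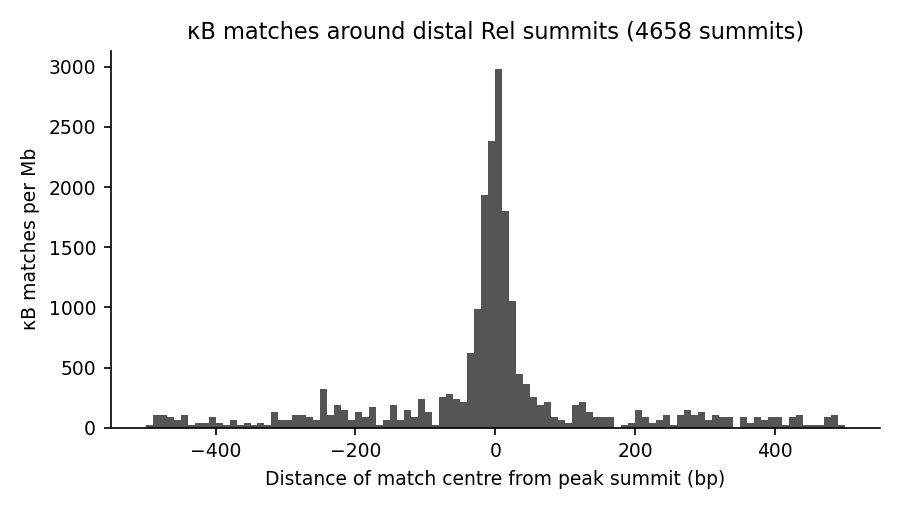
Number of κB matches per Mb (vertical axis) by distance of the match centre from the summit in bp (horizontal axis, bins of 10 bp), over 4658 distal summits. The density peaks at the summit and reaches the level of the surrounding sequence about 100 bp away.

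The match was central in strong and weak peaks. With the 493 peaks divided by signal into 4 groups of equal size, 74.2%, 74.8%, 63.4% and 69.9% had the match within 25 bp, from the strongest group to the weakest, with exact intervals that overlap. Among the strongest peaks the match of cact, at 95.5 bp from the summit, and that of eff, at 62.5 bp, were far out, whereas those of Pli and Hydr2 lay 0.5 bp away.

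Distal peaks with a κB match were stronger than other distal peaks. Signal, the authors' peak signal value in the optimal list, had a lowest value of 191, a median of 472 and a highest of 11523 in the 493 peaks, against 191, 368 and 15024 in the other 4165. The sets overlap over nearly their whole range, but the mean log2 signal was 9.19 against 8.79. The difference was 0.405 (SE 0.0504, linear model across all distal peaks, n = 4658, adjusted p = 4.55e-15 over 4 fits), which is a ratio of 1.32 in the geometric mean (95% interval 1.24 to 1.42). The share of κB peaks fell along the list: with distal peaks in 4 groups by signal, it was 15.4% of the strongest group, 10.4% and 8.51% of those between and 8.08% of the weakest. With TSS distance, GC content, position class and chromosome arm as further terms, the difference was 0.40.

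The size of this difference was not the same in the 3 replicates. To set replicates side by side, each signal was expressed relative to the typical optimal peak of that replicate (the median of those found there), and is called relative signal. The median of this value in κB peaks was 1.02 in replicate 1, 1.42 in replicate 2 and 1.10 in replicate 3, against 0.973, 0.915 and 0.968 in other distal peaks. On the log2 scale the κB peaks were higher by 0.17 (SE 0.0544) in replicate 1, by 0.69 (SE 0.0568) in replicate 2 and by 0.28 (SE 0.0527) in replicate 3. The mean over replicates was 0.38 ± 0.27 (SD, n = 3; exact two-sided sign-flip permutation p = 0.25, the smallest that 3 replicates allow). All 3 replicates thus showed the same direction, with the largest difference in replicate 2, and the mean without replicate 2 was 0.22.

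**Figure D2:**
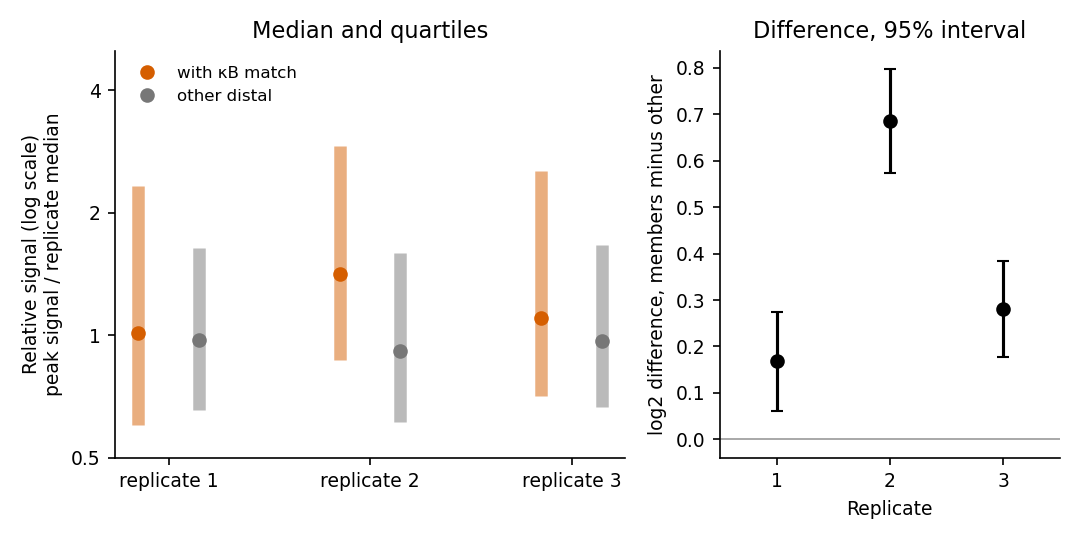
Left, relative signal on a log scale for distal peaks with a κB match (orange) and other distal peaks (grey) in each replicate; points are medians and bars run from the lower to the upper quartile. Right, difference in mean log2 relative signal with its 95% interval, which is 0.69 in replicate 2 against 0.17 and 0.28 in the other two.

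Replicate 2 also stood apart peak by peak. Among κB peaks with a matching peak in the whole list of every replicate, relative signal was highest in replicate 2 for 343 of 474 (72.4%), in replicate 3 for 76 and in replicate 1 for 55. Among other distal peaks replicate 2 was highest in 1391 of 3802 (36.6%), a difference of 35.8 points (Newcombe 95% interval 31.3 to 39.9), and over all distal peaks in 40.6%. The labels name no batch, treatment or collection that sets replicate 2 apart, and the part of any such difference in this result was not tested.

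In each replicate's own list, distal peaks were ranked by signal and searched for κB matches. Of the 500 strongest, 16.6% held a match in replicate 1, 22.4% in replicate 2 and 18.6% in replicate 3. At ranks 8001 to 10000 the shares were 3.95%, 4.65% and 4.10%. The decline with rank was thus seen in every replicate, and replicate 2 had the highest share in each bin of ranks up to 10000.

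**Figure D3:**
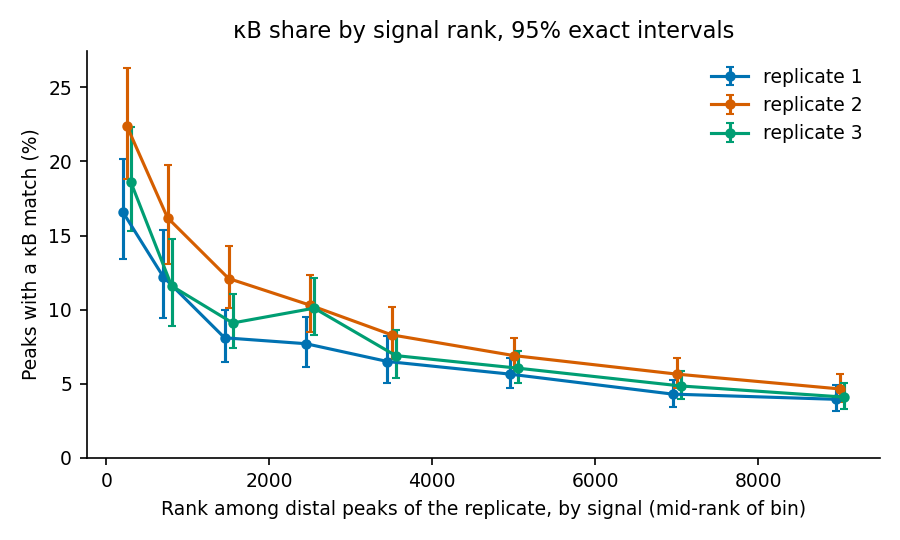
Percentage of distal peaks with a κB match (vertical axis, exact 95% intervals) by rank of signal within each replicate's own list (horizontal axis, mid-rank of each bin). The lines fall from between 16.6% and 22.4% in the first bin to between 3.95% and 4.65% in the last, with 1 rise on the way, from 9.10% to 10.1% in replicate 3.

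Support across replicates was higher for κB peaks when all 3 replicates were counted. Among the top 9419 peaks of each replicate, a summit within 100 bp was found in all 3 for 363 of the 493 (73.6%). Another 77 peaks were matched in 2 replicates, 52 in 1 replicate and 1 peak in 0. Of other distal peaks 63.0% were matched in all 3, and of all distal peaks 64.1%. The difference was 10.6 points (Newcombe 95% interval 6.29 to 14.6; logistic model across all distal peaks, n = 4658, adjusted p = 2.81e-06). It came with replicate 2, whose top list held 94.9% of κB peaks and 80.7% of other distal peaks, while the shares were 81.1% and 83.5% in replicate 1 and 86.6% in both sets in replicate 3. Without replicate 2 the difference was 0.68 points (n = 4658, adjusted p = 0.742). With log2 signal as a further term, added after the data were seen, the log odds went from 0.49 to 0.19 (n = 4658, p = 0.220, likelihood ratio).

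The strongest κB peaks lay in or near genes of varied function. The peak of CG4911, at rank 18 of the optimal list with signal 11523, had a relative signal of 25.1, 32.3 and 27.6 in replicates 1, 2 and 3. That of CG46385, in a later intron 6779 bp from the nearest TSS, had 28.9, 28.6 and 27.8, with the lowest coefficient of variation of the 20 strongest (1.89%). CG5921 on the X chromosome followed with 18.3, 23.2 and 19.0. These 3 were above the other 17 in replicates 1 and 3, but not in replicate 2.

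Next came the first intron of MEP-1, which encodes a zinc finger protein that works with a chromatin remodeller and overlaps CG42245 there. Its relative signal was 11.6, 28.4 and 15.0, so that its SD of 8.88 was the largest of the 20 beside a mean of 18.3. The intergenic peak nearest to Tmem43 among protein-coding genes had 12.4, 23.9 and 16.3. In both, replicate 2 was well above the other two, as it was for Adk3, an adenylate kinase gene, with 9.10, 17.0 and 9.95.

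Of the 20, Pli and cact are in the list of Toll pathway genes and eff in that of IMD genes. The peak of Pli, the Pellino protein of Toll signalling, lay in a later intron 4670 bp from the TSS and had a relative signal of 13.9, 18.3 and 14.1. That of cact, the IκB protein that holds the Toll pathway factors Dorsal and Dif in the cytoplasm, lay in a later intron 5379 bp from its TSS and had 12.8, 13.6 and 12.04. In the first intron of eff, a ubiquitin-conjugating enzyme that acts in the IMD pathway among others, the values were 10.3, 15.5 and 13.4. The first intron of Mekk1, a kinase of stress-activated MAP kinase signalling, had 12.4, 12.6 and 11.6. Replicate 2 was the highest at all 4, by a wide margin at Pli and by little at Mekk1.

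The rest of the 20 had signals from 4095 to 5434. In order of signal they lay at Exn, Hydr2, a hydrolase, LPCAT, a lysophospholipid acyltransferase, RabX1, a Rab GTPase, Trx2, a thioredoxin, CG12237, dally, a cell surface glypican, CG18178, COX7AL2 and shn, a zinc finger protein of Dpp signalling. Their relative signal ran from 8.42 in replicate 1 at shn to 16.3 in replicate 2 at Exn. Of all 20 peaks, 16 had their highest value in replicate 2, and all 20 were matched in the top lists of all 3 replicates. In this set 10 lay in first introns, 5 in later introns, 4 in intergenic sequence and 1, that of CG18178, in an exon.

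**Figure D4:**
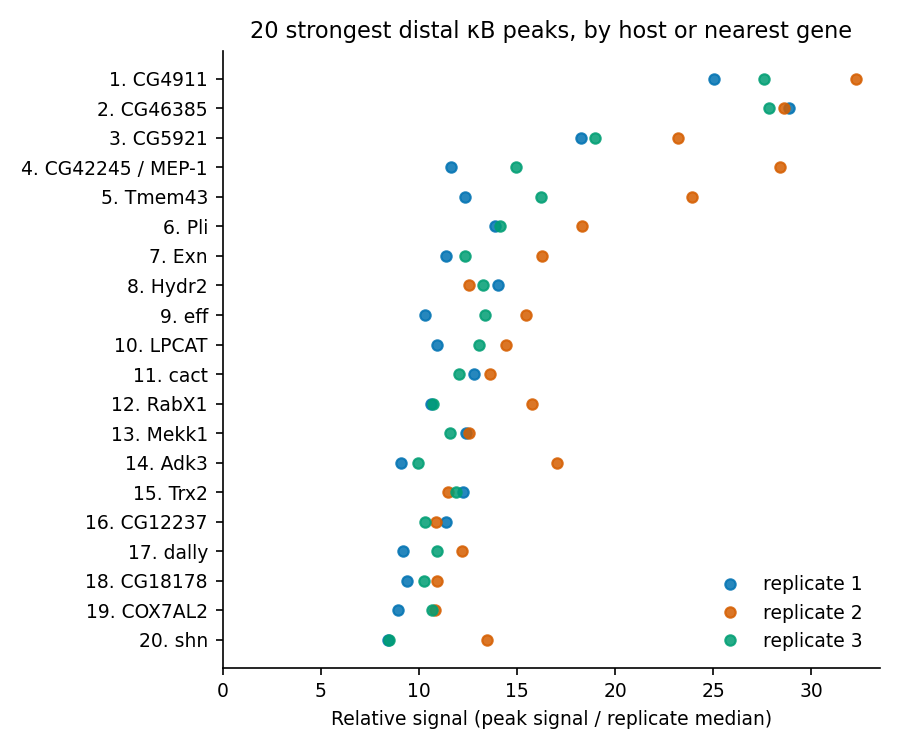
Relative signal (horizontal axis, a peak's signal divided by the replicate's median) of the 20 distal κB peaks of highest signal, named by host or nearest protein-coding gene, with 1 point per replicate. CG4911, CG46385 and CG5921 lie to the right, and replicate 2 is far from the other two at MEP-1, Tmem43 and Adk3.

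The coefficient of variation of relative signal over replicates had a lowest value of 0.829%, a median of 23.8% and a highest of 98.1% over 474 peaks. Its median was 17.6% in the strongest of the 4 groups of κB peaks by signal, 24.6% and 25.5% in those between and 29.9% in the weakest. The most even was at CG3764 (1.20, 1.22 and 1.20), followed by CG45060 and Obp56h, an odorant binding protein gene. The most uneven was at CG6966 (0.152, 1.54 and 0.512), followed by muc and by zip, the non-muscle myosin heavy chain. In these 3 replicate 2 was the highest, and each was matched in the top list of 1 replicate only.

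Counting for each peak both the host gene and the gene of the nearest protein-coding TSS, 540 of all 13945 protein-coding genes (3.87%) had a κB peak. The counts for lists of known genes are given against this share, and no list was tested. Of 26 antimicrobial peptide genes 1 had such a peak (3.85%, near the share of all genes), AttD, an attacin. This intergenic summit lay 1144 bp from the TSS of AttD and nearer, at 514 bp, to that of a tRNA gene, and its relative signal was 1.20, 1.73 and 1.10. Of 13 peptidoglycan recognition protein genes 1 (7.69%) had a κB peak, PGRP-LB, an amidase that degrades the elicitor. It had a peak of 2.26, 2.94 and 3.07 in an intron 578 bp from its TSS, and a second of 1.05, 1.89 and 1.88 lay at 882 bp within CG17230. Of 19 IMD genes 1 had one (5.26%), eff. A distal peak of any kind was present at 19.2% of the antimicrobial peptide, 30.8% of the recognition protein and 26.3% of the IMD genes, against 17.5% of all. Of genes with a distal peak, 20%, 25% and 20% in that order had a κB peak, against 22.1% of all. Peaks at the promoters of these genes are not counted here.

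Of 20 Toll pathway genes 4 (20%) had a κB peak, against 3.87% of all genes. A distal peak of any kind was present at 9 of the 20 (45.0%, against 17.5% of all genes). Of genes with a distal peak, 44.4% of the Toll list and 22.1% of all had a κB peak. Besides Pli and cact, the Toll genes with a κB peak were SPE and nec, a serpin. SPE, the protease that activates the ligand Spätzle, had a relative signal of 2.59, 3.01 and 2.22 in an exon. JNK signalling had 2 of 13 genes (15.4%), kay, the Fos subunit of AP-1, and msn, an upstream kinase. The stronger kay peak had 10.1, 7.62 and 9.53, a case in which replicate 2 was the lowest, and msn had 5.46, 7.35 and 6.51. In the JAK-STAT list 2 of 16 genes (12.5%) had one. They were upd3, a cytokine ligand, with 2.84, 4.27 and 3.41, and Ptp61F, a phosphatase, with 0.816, 0.175 and 0.513. A distal peak of any kind was present at 53.85% of the JNK and 37.5% of the JAK-STAT genes, against 17.5% of all. Of genes with a distal peak, 28.6% of the JNK list and 33.3% of the JAK-STAT list had a κB peak, against 22.1% of all.

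Of 16 ecdysone response genes 5 (31.25%) had a κB peak, against 3.87% of all genes. A distal peak of any kind was present at 12 (75%), against 17.5% of all genes. Of genes with a distal peak, 41.7% of the ecdysone list and 22.1% of all had a κB peak. The 5 were br, Eip93F and Eip74EF, transcription factors of metamorphosis, and the nuclear receptor genes Eip78C and Hr4. The peak of br, shared with the overlapping gene Mur2B, was the strongest, with 4.22, 5.53 and 5.10. Of 14 insulin and TOR genes 3 (21.4%) had a κB peak. They were InR, the insulin receptor (2.44, 4.48 and 3.16), foxo, the transcription factor it restrains (3.23, 3.37 and 3.23), and Sesn. The InR values were highest in replicate 2, while those of foxo were nearly equal. A distal peak of any kind was present at 50% of the insulin and TOR genes, and of those with one 42.9% had a κB peak.

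Among lists of tissue genes, hemocyte genes had 1 of 14 (ush, a cofactor of GATA factors), fat body genes 2 of 15 (bmm, a lipase, and Lsp1beta, a storage protein), muscle genes 1 of 13 (Mef2) and neuronal genes 1 of 10 (elav), while midgut genes had 0 of 12 and melanization and clotting genes 0 of 10. The strongest of these was the ush peak with 2.35, 3.51 and 2.90. Over the 14 lists together, 24 of 210 genes (11.4%) had a κB peak, against the 3.87% of all protein-coding genes. Genes of these lists also had distal peaks of any kind more often, 38.6% against 17.5%. Of genes with a distal peak, 29.6% of the listed ones and 22.1% of all had a κB peak.

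A few genes held several κB peaks. Counted by host gene alone, or by the nearest protein-coding gene where there was no host, the 493 peaks fell to 448 genes, of which 391 had 1, 42 had 2, 14 had 3 and 1 had 4. The gene with 4 was dally, whose relative signals of 9.20, 12.2 and 10.9, then 4.15, 5.92 and 5.01, belong to its stronger pair, with a weaker pair near or below 1.07. Among those with 3, cact had, besides its strong peak, one of 2.33, 2.49 and 2.57 in its first intron and one of 0.739, 0.700 and 0.522. Peaks of 1 gene could thus differ widely in strength, and they share a locus, so that they are not independent. The others with 3 were kay, br with Mur2B, Sarm, an adaptor with a TIR domain, sgg, the GSK3 kinase, foxo, ush, crp, mtgo, Glut4EF with CG46467, ths, an FGF ligand, and Fur1, a furin protease. In both overlapping pairs the same 3 peaks count for each gene.

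Within the annotation, κB peaks lay in exons more often and in first introns less often than other distal peaks. In first introns were 201 of the 493 (40.8%) against 50.4% (a difference of -9.63 points, 95% interval -14.1 to -4.98; n = 4658, logistic model, adjusted p = 0.000101 over 4 classes). In all introns were 64.3% against 71.9% (-7.63 points, n = 4658, adjusted p = 0.000687, logistic model). In exons were 79 (16.0%) against 9.24% (6.78 points, 95% interval 3.67 to 10.4, n = 4658, adjusted p = 3.38e-05, logistic model). Intergenic shares were 19.7% and 18.8% (0.85 points, 95% interval -2.64 to 4.77, n = 4658, adjusted p = 0.649, logistic model).

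The exonic difference lay in coding sequence, in a comparison added after the data were seen. Summits in coding sequence made up 42 of the κB peaks (8.52%) and 94 of the others (2.26%), a difference of 6.26 points (95% interval 4.05 to 9.09, n = 4658, logistic model, adjusted p = 1.37e-10 over 3 added fits), while those in untranslated exon parts made up 6.09% and 5.47%. Among genome tiles, those centred in coding sequence held a κB match more often too, 2.27% of 92759 against 1.60% of 481901 other distal tiles, and the part of this in the difference was not tested. Exonic κB peaks had a median signal of 444, close to the 466 to 492 in the other classes.

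Distance to the nearest TSS did not differ detectably. Its median was 2180 bp in κB peaks and 2263 bp in other distal peaks, a difference of 0.01 in mean log10 distance (95% interval -0.03 to 0.05, n = 4658, linear model, adjusted p = 0.508). Peaks were of like width, with medians of 370 and 378 bp. Intervals with several summits held 9.13% of κB peaks and 13.5% of the others (-4.34 points, n = 4658, adjusted p = 0.00704, logistic model, added after the data were seen). The share of κB peaks among distal peaks ran from 9.60% on X to 11.9% on 3R over the large arms, with overlapping exact intervals, and chromosome 4 had 0 of 6.

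At the edge of the TSS threshold, the peaks just inside were 501 bp (ClC-c, signal 358) and 502 bp (CG5065, signal 752) away, and those just outside 498 bp (Cipc, signal 7925) and 496 bp (mats, signal 361). For the match, the far edge was at 100 bp for cact and 98 bp for CG11089 just inside, and at 101 bp for Dtg and 103 bp for Ca-beta just outside.

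Sequence around the match was richer in G and C. With match bases left out, GC content was 44.9% in κB windows and 42.7% in other distal windows, a difference of 2.24 points (SE 0.374, n = 4658, linear model, adjusted p = 4.16e-09). For summits outside exons alone, added after the data were seen, it was 2.13 points.

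Of 11 other motifs, 2 differed, and both were less frequent beside κB matches. GATAA, the core of GATA factor sites, was present in 187 of the 493 windows of 201 bp (37.9%) against 48.8% of other distal windows, 47.6% of all distal windows, 45.3% of all optimal windows and 32.6% of genome tiles. The difference was -10.8 points (Newcombe 95% interval -15.3 to -6.22, n = 4658, logistic model, adjusted p = 5.13e-05). GATAA was thus more frequent than in genome tiles but less frequent than at other distal summits. It was counted on both strands and only where it shared no base with the κB match. With 10 bases around the summit left out in the other distal peaks as well, added after the data were seen, the difference was -8.31 points (n = 4658, adjusted p = 0.00464, logistic model). The gap between match and nearest GATAA had a median of 36 bp, and in 53 of the 187 it was at most 20 bp.

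GAGAG, the core of GAGA factor sites, was in 23.5% of κB windows, 29.9% of other distal windows and 21.4% of tiles (-6.34 points, n = 4658, logistic model, adjusted p = 0.0157). The GAGAG call was lost with the 10 bases left out in the other peaks too (-5.14 points, n = 4658, adjusted p = 0.0812, logistic model). The AP-1 motif TGANTCA was in 6.09% and 8.12% (n = 4658, adjusted p = 0.375, logistic model), against 3.90% of tiles. The other 8 letter strings, searched on both strands, were CACGTG (E-box), TATCGATA (DRE), TTCNNNGAA (STAT), CCGGAA (ETS), CAGGTAG (Zelda), TGTTTAC (Forkhead), TGACGTCA (CRE) and TTGCNNCAA (C/EBP). Their shares differed by at most 0.848 points and had adjusted p from 0.815 to 0.991 (n = 4658, logistic model). A match is only a run of letters and does not show that a factor was bound.

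The κB matches themselves came in many forms. The nearest match of the 493 peaks had 78 of the 100 distinct sequences found at distal places in the genome, was symmetric in 247 and one-strand in 246. The commonest 5 made up 140 peaks (28.4%). They are given to show the letters that recur, and each is written on the strand that reads as the κB form, or for symmetric ones on the strand first in the alphabet. The first, GGGATTCCCC, was nearest in 42 peaks, GGGAATCCCC in 29, GGGAAACCCC in 24, GGGGAATTCC in 23 and GGGAAATCCC in 22, level with 1 other sequence. Of the 5, the first 3 and GGGAAATCCC are symmetric, and positions 5 and 6 of all 5 hold A or T.

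Only a small share of the genome's distal κB matches lay near a Rel summit. Of 11612 matches more than 500 bp from a TSS, 669 (5.76%) were within 100 bp of an optimal summit. As runs of G or C produce matches that overlap, these were also counted once per locus, which gave 505 of 10396 loci (4.86%), a count added after the data were seen. Loci with overlapping matches were near a summit in 140 of 1120 cases (12.5%, exact 95% interval 10.6 to 14.6), single symmetric matches in 178 of 2138 (8.33%, 7.19 to 9.58) and single one-strand matches in 187 of 7138 (2.62%, 2.26 to 3.02). The 3 intervals do not overlap. The same order held within 100 bp of any pooled summit (22.0%, 16.8% and 7.00%) and of optimal summits matched in all 3 replicates (9.11%, 6.17% and 1.95%).

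**Figure D5:**
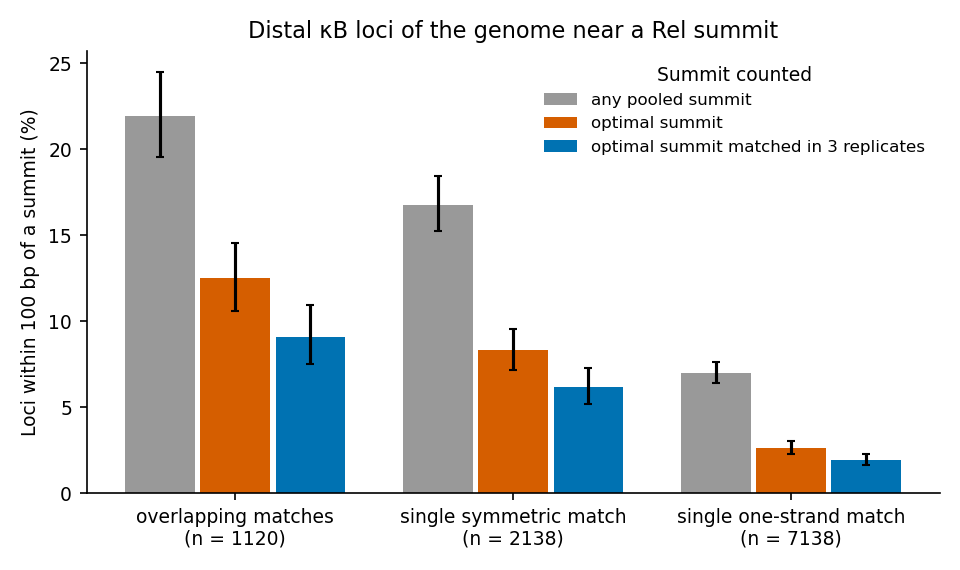
Percentage of distal κB loci of the genome within 100 bp of a summit (vertical axis, exact 95% intervals), by kind of locus and by the summits counted. For optimal summits the bars stand at 12.5%, 8.33% and 2.62%.

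Base by base, single matches near summits differed from those elsewhere, in counts added after the data were seen. Positions are counted from 1 at the first G. Among single one-strand matches, those with G as the purine at position 4 were near an optimal summit in 4.04% of 3513 cases (exact 95% interval 3.42 to 4.75) and those with A in 1.24% of 3625 (0.907 to 1.66). Those with T as the first pyrimidine, at position 7, were near a summit in 3.30% of 4303 cases and those with C in 1.59% of 2835. Symmetric matches with A or T at both middle bases were near a summit in 11.5% of 903 cases (9.51 to 13.8), with 1 such base in 6.07% of 956 and with none in 5.73% of 279. The last pair have intervals that overlap.

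Among whole sequences the share near a summit also varied, for matches that overlap no other. Among the sequences named above as commonest, it was 17.2% of 145 for GGGATTCCCC (exact 95% interval 11.5 to 24.4), 12.7% of 110 for GGGAATCCCC and 12.1% of 140 for GGGAAACCCC. It was 8.61% of 151 for GGGGAATTCC, the match of the CG4911 peak, and 8.67% of 173 for GGGAAATCCC. The interval of each of the first 3 overlaps those of the other two, so that they cannot be set in order.

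Median signal was close over the kinds of match, which were not tested against each other. It was 455 in the 137 peaks with overlapping matches, 457 in the 178 with a single symmetric match and 480 in the 178 with a single one-strand match. The upper quartiles lay further apart, at 949, 1193 and 915. Median relative signal in replicate 2 was 1.47, 1.42 and 1.31 in that order, above both other replicates for each kind. The match lay within 25 bp of the summit in 79.6%, 72.5% and 61.8% of these peaks, and the intervals of the first (71.8 to 86.0) and last (54.2 to 69.0) do not overlap. A second, separate κB match lay in the window of 16 of the 493 peaks (3.25%), and no match was shared by different peaks.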

How the data were processed

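The authors called peaks per replicate and on the 3 replicates pooled, with a control alignment, and derived the optimal list from these lists (dm6), per the file headers. All 3 samples form 1 group. Signal is the peak signal value as deposited by the authors. The −log10 q-value deposited by the authors is 4.43 throughout the optimal list and was not used. The sources used here name no aligner, caller or IDR threshold, and give no depth.

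TSSs came from Ensembl release 115 (transposable elements left out), sequence from the RefSeq Release 6 genome. Relative signal and summit matching (100 bp) are defined in the results. Linear and logistic models (statsmodels 0.14.6, Python 3.11.15) were fitted across all distal peaks with Benjamini-Hochberg adjustment within each family at 0.05. They were tested on simulated data. Their p-values describe this list, since peaks are not replicates. Intervals cover counting error only.

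The peaks, motifs and gene lists were chosen with earlier results of these data known. Named are the 20 strongest peaks, up to 3 per gene list, genes with most peaks (ties included), extremes of variation, threshold neighbours and the 5 commonest sites. Other list genes are named to complete counts. Of 211 listed names 1 was unmatched.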

Additional observations from a re-analysis of the deposited data

Results flagged for a closer look

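Pooled peaks that did not enter the optimal list were used in no comparison of peak sets above. Among 14983 such distal summits, more than 200 bp from any optimal summit, 3.93% held a κB match (exact 95% interval 3.63 to 4.25), which was higher than in 1.42% of 18258 distal windows 1000 bp away from them. The difference was 2.51 points (Newcombe 95% interval 2.16 to 2.87). The share is below the 10.6% of distal optimal summits.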

How the results depend on the processing

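Over 25 results and 196 alternatives, 165 kept their call or moved within the replicate or counting error, and 23 moved further. Another 8 kept direction but lost the call, and 0 reversed with a call. A change of sign where no call was made counted as kept. The log10 TSS distance difference changed sign, from 0.01 to -0.0359 above the median signal and -0.00209 with the relaxed form. The intergenic difference went from 0.85 to -0.13 points for matches within 50 bp. The signal difference held under every alternative run, and without 1 replicate it ran from 0.225 without replicate 2 to 0.475 without replicate 1. The share matched in all replicates ran from 0.68 points without replicate 2 to 11.5 without replicate 1, and it was 15.9 points with summits matched within 50 bp, 4.86 with every peak of the replicate lists and 3.79 among peaks above the median signal, against 10.6. Its log odds with signal as a term was 0.19 (0.49 without). The intron difference was -5.83 points among optimal peaks above the median signal (n = 2275, adjusted p = 0.0562, logistic model). The 2 motifs called became 1 with TSSs over 1000 bp away, with the symmetric form, among peaks above the median signal and with 10 bases left out in other peaks, where GAGAG no longer passed. For summits outside exons alone GAGAG did not pass either (-5.58 points, n = 4194, adjusted p = 0.0894, logistic model). The share centred within 25 bp was 80.7% for matches within 50 bp, 64.8% within 150 bp, 74.7% for the symmetric form and 55.8% for the relaxed form, with wider windows adding outer matches by construction. Of genomic matches, 5.04% lay within 50 bp of an optimal summit, 11.9% near any pooled summit, 4.22% near summits matched in all replicates and 4.86% of loci with overlaps counted once. By any TSS within 10000 bp, 8.11% of all genes and 16.2% of listed genes had a κB peak, against 3.87% and 11.4%. The JAK-STAT and the insulin and TOR counts fell to 1 and 2. The peptidoglycan recognition protein and muscle counts stayed at 1. Counts of all other lists rose, such as IMD to 3, Toll to 6, and midgut and melanization and clotting to 1 each. No paired analysis was possible because all samples belong to 1 group, so that no sample of another group shares a replicate number. Peak sets were compared within each replicate instead. Without read counts, depth limits could not be computed.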
